A study of Arabidopsis thaliana with 6 samples.

Results

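The chloroplast genome of Arabidopsis thaliana encodes part of each complex of the photosynthetic membrane and the large subunit of Rubisco, and these plastid genes were examined in rosettes of Col-0 plants and of a mutant, sid2.2. The set holds 33 genes of the RefSeq plastid annotation, namely those whose name starts with psa (photosystem I), psb (photosystem II), pet (cytochrome b6f complex) or atp (ATP synthase), and rbcL. All 33 were represented on the array, each by 1 probe set that names no other gene, out of 22746 probe sets that are not controls. Photosystem I contributed 5 genes, photosystem II 15, the cytochrome b6f complex 6 and the ATP synthase 6. In the genotype test 32 of the 33 were included among 13647 probe sets with sufficient signal. petD lay just under the limit of 79.7, with a mean signal of 78.1, and psaA was the member closest above it, at 113.

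Col-0 is the wild type, and sid2.2 is a mutant of ICS1, which encodes an isochorismate synthase that makes a precursor of salicylic acid. No probe set was named ICS1, so the genotype labels could not be checked with it. Plants of both genotypes were kept on low sulfate (0.016 mM) until day 60 after sowing, in short days (8 h light and 16 h dark, with a photon flux of 160 µmol per square metre per second). The 3 cultures were grown months apart, and every culture gave 1 pool of more than 6 rosettes per genotype, so each genotype had 3 arrays, named here by genotype and culture number (both arrays numbered 2, for instance, belong to culture 2). All groups were sulfate-limited, so no comparison with sulfate-sufficient plants exists here.

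As background, most plastid genes are transcribed as polycistronic units by a bacterial-type polymerase of plastid origin together with a nuclear-encoded phage-type polymerase. The long transcripts are then cut, trimmed, spliced and protected by nuclear-encoded RNA-binding proteins, so that genes of one unit can accumulate to different levels. The complexes also need nuclear-encoded subunits, such as the light-harvesting proteins and the small subunit of Rubisco. Plastid mRNAs carry no stable poly(A) tail, and A-rich tails in plastids mark RNA for decay, while amplification kits of the kind named in the labels prime on poly(A). In pooled rosettes fewer chloroplasts and less RNA per chloroplast cannot be told apart.

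Leaf markers were strong on every array, with a summed signal of 54213 to 91360 over 6 named genes of chlorophyll binding and carbon fixation, while the root marker PYK10, the 1 root marker named, gave 31.99 to 232. No flower or seed marker was named by a probe set. Array medians lay between 131 and 162. The Col-0 array of culture 3 did not group with its genotype. Over the probe sets tested, its log2 signals correlated with those of the sid2.2 arrays at 0.959, 0.965 and 0.931 (Pearson's r, a description across genes), and with the other Col-0 arrays at 0.922 and 0.898. Its closest array was sid2.2 replicate 2, which in turn had the lowest correlations with Col-0 replicates 1 and 2 (0.882 and 0.853). The other array of culture 3, sid2.2 replicate 3, was closest to sid2.2 replicate 1 (0.963). However, sid2.2 replicate 3 correlated with Col-0 replicates 1 and 2 at 0.943 and 0.925, against 0.926 with sid2.2 replicate 2. Limma called 3 probe sets with all arrays and 302 without Col-0 replicate 3. Of the measures of RNA quality, both 3′ over 5′ signal ratios were higher in sid2.2 without overlap. The ratio of actin was 4.91, 4.85 and 4.81 for Col-0, against 5.34, 6.51 and 8.34 for sid2.2 (two-sided exact permutation p = 0.1, which is the lowest p possible here). That of GAPDH was 2.81, 2.74 and 2.33 for Col-0, against 2.93, 3.26 and 3.87 for sid2.2 (two-sided exact permutation p = 0.1). The signal of 25S ribosomal RNA was 2906, 2760 and 4178 for Col-0, against 5035, 3528 and 6524 for sid2.2, which overlap (two-sided exact permutation p = 0.2). Their part in the results on plastid genes was not tested.

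Most plastid photosynthesis genes had lower mean signals in sid2.2 than in Col-0, but no gene passed the test. Of the 32 genes tested, 26 had a mean log2 signal below that of Col-0 and 6 above it, where 50.6% of all probe sets were below. Limma called 0 of the 32 at an adjusted p under 0.05, where 0.022% of all probe sets were called (0.00733% lower and 0.0147% higher), and the smallest adjusted p was 0.499. With culture as a replicate block limma also called 0 members (0% of all probe sets), and 3 had an unadjusted p under 0.05 (4.03% of all probe sets). At an unadjusted p under 0.05 limma gave 7 genes lower and 0 higher, against 2.76% of all probe sets lower and 4.65% higher. The median log2 difference (sid2.2 minus Col-0) was -0.32 over the members and -0.0051 over all probe sets tested. For 6 of the 32 members (psbE, psbF, psbL, psbJ, psbH and atpI) every sid2.2 array was below every Col-0 array, against 5.58% of all probe sets. None had every sid2.2 array above, against 6.4% of all probe sets. With quantile normalization and with median centring psbH overlapped, petN joined the other 5 genes, and median centring added psaC.

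The size of the median rested on which arrays were kept. It was -0.14 without sid2.2 replicate 2, -0.21 without Col-0 replicate 2 and -0.054 without both arrays of culture 2. Without Col-0 replicate 3 it was -0.49, and without both arrays of culture 3 it was -0.615. A member was called only where arrays of culture 3 were left out. Limma called atpI without Col-0 replicate 3 (log2 difference -1.71, adjusted p = 0.0345), where 2.21% of all probe sets were called (0.469% lower). Without culture 3 limma called atpI (-1.88, adjusted p = 0.0168), atpF (-1.21, adjusted p = 0.0344) and psbH (-1.02, adjusted p = 0.0420), where 5.33% of all probe sets were called (1.97% lower). With the culture 2 array of sid2.2 left out in addition to Col-0 replicate 3, which was decided with the data known, limma called atpI alone of the members (-1.39, adjusted p = 0.0278), where 1.72% of all probe sets were called (0.41% lower).

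**Figure D1:**
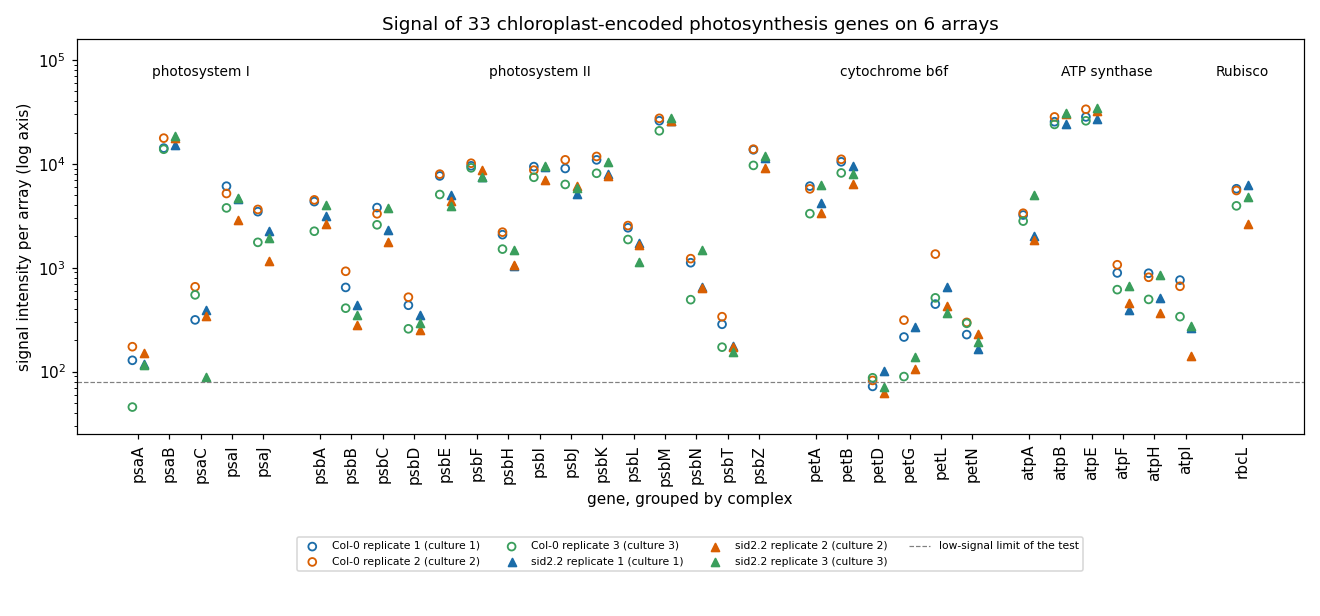
Signal intensity (log axis) of the 33 genes on each array, grouped by complex; circles are Col-0, triangles are sid2.2, colours are the cultures, and the dashed line is the low-signal limit of the test (79.7). Levels of different genes rest on different probes and are not comparable; within a gene, psbE, psbF, psbL, psbJ, psbH and atpI have all 3 triangles below all 3 circles.

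In photosystem I, the complex that reduces ferredoxin, the genes did not move together. psaB, which encodes a chlorophyll-binding core protein, had signals of 14195, 17705 and 13844 for Col-0, against 15046, 17612 and 18430 for sid2.2. The ranges overlapped, and the log2 difference was 0.16 (SE 0.17; limma adjusted p = 0.848). psaC, which encodes the subunit that carries the terminal iron-sulfur clusters, had signals of 315, 656 and 548 for Col-0, against 388, 342 and 89.6 for sid2.2. sid2.2 replicate 3 was far below the other arrays, and the genotypes overlapped. psaC had the largest difference of the complex, -1.08 (SE 0.55; adjusted p = 0.742), with within-culture differences of 0.30, -0.94 and -2.61, and without sid2.2 replicate 3 it was -0.41. psaA, the partner of psaB in the core, was near the low-signal limit and lowest on Col-0 replicate 3 (45.5 against 116 to 174 on the other arrays). The log2 difference of psaA was 0.34 (SE 0.47, limma adjusted p = 0.885), the highest among the tested members. The genes of the small membrane subunits, psaI and psaJ, differed by -0.33 (adjusted p = 0.817) and -0.71 (adjusted p = 0.737).

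Photosystem II, the complex that oxidises water, made up 15 of the 32 tested members. Of its 15 genes, 5 were lower without overlap between genotypes, against 5.58% of all probe sets. These 5 were among the 6 such members. Of these 5, psbE, psbF, psbL and psbJ belong to the same transcription unit. psbA encodes D1, the reaction centre protein that is replaced most often after light damage. Its signals were 4333, 4503 and 2247 for Col-0, against 3179, 2626 and 4055 for sid2.2, so the genotypes overlapped widely, with Col-0 replicate 3 the lowest array. The log2 difference of psbA was -0.12 (SE 0.30; adjusted p = 0.936). psbD, for the partner protein D2, differed by -0.39 (adjusted p = 0.810), and psbC, for the core antenna protein CP43, by -0.37 (adjusted p = 0.816). psbB, for the core antenna protein CP47, had the largest difference of the complex, -0.83 (SE 0.33; adjusted p = 0.636). It gave 646, 925 and 408 for Col-0, against 439, 281 and 353 for sid2.2, where only sid2.2 replicate 1 reached above the lowest Col-0 array.

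Cytochrome b559, a haem protein of the photosystem II core, is encoded by psbE and psbF. psbE had signals of 7657, 7970 and 5072 for Col-0, against 5006, 4374 and 3911 for sid2.2, without overlap, although Col-0 replicate 3 and sid2.2 replicate 1 lay close together. Its mean was 6900 ± 1591 for Col-0 and 4430 ± 550 for sid2.2 (SD, n = 3), a log2 difference of -0.62 (SE 0.22) that limma did not call (adjusted p = 0.617). psbF had signals of 9588, 10151 and 9165 for Col-0, against 7401, 8654 and 7429 for sid2.2, a smaller gap (-0.30, SE 0.16; adjusted p = 0.745). The genes that follow them, psbL and psbJ, encode small subunits at the core. psbL gave 2426, 2547 and 1870 for Col-0, against 1729, 1646 and 1128 for sid2.2 (log2 difference -0.62, SE 0.24; adjusted p = 0.633). psbJ gave 9034, 10944 and 6340 for Col-0, against 5132, 6087 and 5870 for sid2.2 (log2 difference -0.59, SE 0.23; adjusted p = 0.627). For all 4 of these genes the highest sid2.2 array was below the lowest Col-0 array, a pattern held by 5.58% of all probe sets. For the 4 genes this held with quantile normalization and with median centring. The 4 genes share a transcription unit and the same arrays, so they are not independent of each other. They were also set apart after their values were seen, so their count is no test.

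The other small photosystem II subunits were uneven. psbH, for a phosphoprotein of the core, gave 2083, 2201 and 1511 for Col-0, against 1041, 1064 and 1477 for sid2.2 (log2 difference -0.69, SE 0.24; adjusted p = 0.595). The gap between the genotypes was narrow, because Col-0 replicate 3 and sid2.2 replicate 3 were nearly equal. psbM had signals of 26042, 27468 and 20837 for Col-0, against 25727, 25802 and 27867 for sid2.2, with the difference at 0.10 (SE 0.16; adjusted p = 0.898), turned to -0.0058 by quantile normalization. psbT, psbK and psbZ differed by -0.60, -0.24 and -0.19, and psbI by 0.014, a value that turned below 0 with both other scalings. psbN, for an assembly factor of the photosystem and not a subunit, differed by -0.051, and its 3 cultures went apart (-0.78, -0.95 and 1.58).

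For the cytochrome b6f complex, which passes electrons between the photosystems, all 5 tested genes had differences below 0, from -0.52 to -0.14. As deposited, each overlapped between genotypes, but petN did not overlap with quantile normalization or with median centring. petN was lower in sid2.2 in all 3 cultures as deposited (-0.47, -0.36 and -0.61). petB, for cytochrome b6, gave 10474, 11075 and 8185 for Col-0, against 9594, 6426 and 7923 for sid2.2 (log2 difference -0.32, SE 0.21; adjusted p = 0.778). The arrays interleave, with sid2.2 replicate 1 above Col-0 replicate 3. petA, for cytochrome f, differed by -0.14 (adjusted p = 0.929), and the small-subunit genes petN and petG by -0.48 (adjusted p = 0.745) and -0.20 (adjusted p = 0.936). petL, for another small subunit, had the largest value of the complex, -0.52 (SE 0.43; adjusted p = 0.817). Col-0 replicate 2 stood far above the other arrays, as petL gave 446, 1354 and 513 for Col-0, against 652, 431 and 370 for sid2.2. petD, for subunit IV, was at the low-signal limit on all arrays, with 72.0, 82.2 and 87.1 for Col-0, against 100, 62.1 and 70.6 for sid2.2, and was not tested.

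The ATP synthase uses the proton gradient across the membrane to make ATP. The genes of the catalytic head, atpA (alpha subunit), atpB (beta) and atpE (epsilon), differed by -0.23, 0.13 and 0.089, the last turned to -0.037 by quantile normalization. atpE gave 28348, 33581 and 26011 for Col-0, against 27075, 32099 and 34289 for sid2.2, with full overlap (SE 0.17; limma adjusted p = 0.917). Among the genes of the membrane part, atpF (subunit b) differed by -0.77 (SE 0.29; adjusted p = 0.627) and atpH (the ring subunit c) by -0.40 (adjusted p = 0.832). atpI, for the membrane subunit a beside the ring, had the largest difference of the whole set. Its signals were 760, 663 and 338 for Col-0, against 263, 141 and 278 for sid2.2, without overlap, although Col-0 replicate 3 was well below the other Col-0 arrays. The mean was 587 ± 221 in Col-0 and 227 ± 75.0 in sid2.2 (SD, n = 3), a log2 difference of -1.35 (SE 0.38; adjusted p = 0.499), or 0.392 of the Col-0 level. No test between the head and membrane genes was made.

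rbcL, for the large subunit of Rubisco, the enzyme that fixes carbon dioxide, gave 5762, 5543 and 3945 for Col-0, against 6327, 2652 and 4786 for sid2.2. Its highest and its lowest array were both of the mutant, and the log2 difference was -0.22 (SE 0.32; adjusted p = 0.894). Without sid2.2 replicate 2 the difference was 0.13.

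Over the 32 tested members the highest array exceeded the lowest by a median of 2.13-fold, against 1.88-fold over all probe sets tested. Levels relative to each gene's own mean had a median of 0.35, 0.40 and -0.20 on the Col-0 arrays and -0.11, -0.38 and 0.035 on the sid2.2 arrays, so Col-0 replicate 3 lay below sid2.2 replicates 1 and 3. Col-0 replicate 2 was the highest array for 19 members, where it was highest for 21% of all probe sets. The lowest array was sid2.2 replicate 2 for 13 members and Col-0 replicate 3 for 9, where these were lowest for 20.9% and 10.8% of all probe sets. On sid2.2 replicate 1, ATP synthase genes had the lowest median of the complexes (-0.34), while rbcL had its highest level there (0.44). The ATP synthase genes were lower still on sid2.2 replicate 2 (-0.57). sid2.2 replicate 3 was the highest array for 8 members, where it was highest for 12.4% of all probe sets. The F test of culture, with genotype in the model, called 0 of the 32 members and 0% of all probe sets. At an unadjusted p under 0.05 it gave 0 members and 0.213% of all probe sets. This F test covers only shifts that both genotypes of a culture share. It cannot show whether the genotype difference changed between cultures, so its result does not mean that cultures were alike.

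**Figure D2:**
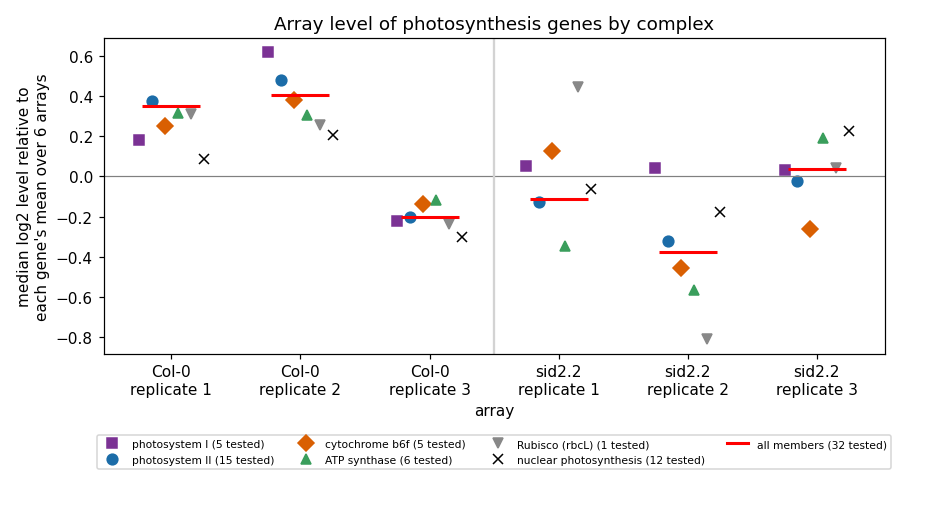
Median log2 level of the tested genes of each complex on each array, relative to each gene's mean over the 6 arrays; the red bars are the median of all 32 tested members and crosses are 12 nuclear photosynthesis genes. The members stand highest on Col-0 replicates 1 and 2 (0.35 and 0.40) and lowest on sid2.2 replicate 2 (-0.38), with Col-0 replicate 3 at -0.20.

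Members with very strong signals varied little. For the 5 genes with a mean signal above 10000 (psbM, psbZ, psaB, atpB and atpE) the highest array exceeded the lowest by a median of 1.33-fold, against 2.195-fold for the other 27 tested members. Over all 201 tested probe sets above that signal the median was 1.49-fold. Whether a ceiling of the signal narrows these values was not tested. Of these 5 genes, psbZ was the 1 with a difference below 0 (-0.19), while 25 of the other 27 were below 0.

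Within cultures the members were compared on 1 array of each genotype, so these values carry no test. In culture 1, 27 of 32 members were lower in sid2.2, with a median log2 difference of -0.46, where 42.1% of all probe sets were lower. In culture 2, 31 of 32 were lower with a median of -0.86 (49.9% of all probe sets), and atpB was the exception at 0.078. Culture 3 went the other way, with 20 members higher, 12 lower and a median of 0.29 (55% of all probe sets lower). With quantile normalization culture 1 had 23 lower and 7 higher, and with median centring 30 lower and 2 higher. For 16 of the 32 members the difference was below 0 in cultures 1 and 2 and above 0 in culture 3, against 17.3% of all probe sets. In all 3 cultures 10 of the 32 members were lower, against 10.5% of all probe sets. None was higher in all 3, where 11% of all probe sets were. Median centring shifted culture 1 for all probe sets tested, from a median of 0.11 to -0.21. Relative to the median of all probe sets, the members stood at -0.56, -0.86 and 0.35 in cultures 1, 2 and 3. With quantile normalization they stood at -0.40, -0.82 and 0.14. Median centring shifts all probe sets of an array alike, so it cannot change these relative values.

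Genes of one transcription unit were also compared side by side, with no test of the units. The psbE-psbF-psbL-psbJ unit was lower in sid2.2 in every culture and for every gene, with differences of -0.82 to -0.37 in culture 1, -0.87 to -0.23 in culture 2 and -0.73 to -0.11 in culture 3. All 4 genes stayed below 0 in all cultures with quantile normalization and with median centring. psbL was lowest in culture 3 (-0.73), where most of the set was higher. In the psbB unit (psbB, psbT, psbH, petB and petD) the 4 tested genes were lower in cultures 1 and 2, with medians of -0.62 and -1.01. Culture 3 showed little difference there (median -0.10), with all 4 below 0, against 3 with quantile normalization and 2 with median centring. psbN lies between psbT and psbH on the opposite strand, and its culture 3 difference was 1.58 where those of psbT and psbH were -0.16 and -0.033.

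psaC is read with genes of the NADH dehydrogenase-like complex, in the order ndhH, ndhA, ndhI, ndhG, ndhE, psaC and ndhD. All 6 tested genes of that unit were lower in sid2.2 in culture 3, by a median of -0.42 (5 of 6 with quantile normalization), and in culture 2, by -0.99. ndhA, for a membrane subunit of that complex, gave 6720, 7332 and 5620 for Col-0, against 5000, 3645 and 2114 for sid2.2, without overlap (log2 difference -0.95, SE 0.30; adjusted p = 0.545). The lowest signal of ndhA, of psaC and of ndhH was on sid2.2 replicate 3, the array with the highest actin ratio (8.34), and the part of RNA quality in these values was not tested. ndhH, under the low-signal limit, gave 116, 119 and 110 for Col-0, against 70.6, 37.5 and 21.1 for sid2.2. Of ndh genes elsewhere, ndhJ and ndhK were higher in sid2.2 in culture 3 (1.51 and 1.70) and lower in cultures 1 and 2. Their neighbour ndhC differed little, by -0.21, 0.020 and 0.12 in cultures 1, 2 and 3.

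The atpI unit, in which rps2 for a ribosomal protein precedes atpI, atpH, atpF and atpA, was lower for all 5 genes in cultures 1 and 2, with medians of -0.81 and -1.23. In culture 3 the median was 0.77, and atpI alone was below 0 (-0.28), also with the other scalings. atpI and its neighbour atpH, which gave 885, 810 and 495 for Col-0, against 506, 364 and 846 for sid2.2, thus parted on sid2.2 replicate 3. The psbD-psbC-psbZ unit was lower in cultures 1 and 2 (medians -0.31 and -0.91) and higher in culture 3 (0.29), for all 3 genes each time. psbD gave 435, 520 and 258 for Col-0, against 351, 252 and 293 for sid2.2, and psbC gave 3796, 3308 and 2590 against 2288, 1764 and 3733. In the psbK and psbI pair the same turn was seen, with medians of -0.24, -0.47 and 0.37, but 1 of the 2 was above 0 in culture 1 with quantile normalization.

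The atpB-atpE unit and psaB differed little in cultures 1 and 2, between -0.066 and 0.084, and were higher in sid2.2 in culture 3 by 0.37 for atpB, 0.40 for atpE and 0.41 for psaB. With median centring all 3 genes were lower in culture 1 (-0.23 to -0.38), and with quantile normalization atpB and atpE were both below 0 in culture 3. psaA, the neighbour of psaB and near the low-signal limit, differed by -0.11, -0.20 and 1.34 in cultures 1, 2 and 3. petL, petG and psaJ, which are read with the ribosomal protein genes rpl33 and rps18, had differences of -1.65, -1.55 and -1.64 in culture 2. In culture 1 petL and petG were higher by 0.55 and 0.32 and psaJ was lower (-0.63). petG gave 215, 313 and 89.5 for Col-0, against 268, 106.7 and 138 for sid2.2, with the lowest signal on Col-0 replicate 3. In the accD unit, psaI and petA turned above 0 in culture 3 (0.30 and 0.91), whereas accD itself, for a subunit of fatty acid synthesis, was lower in all cultures (-0.66, -1.61 and -0.29).

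**Figure D3:**
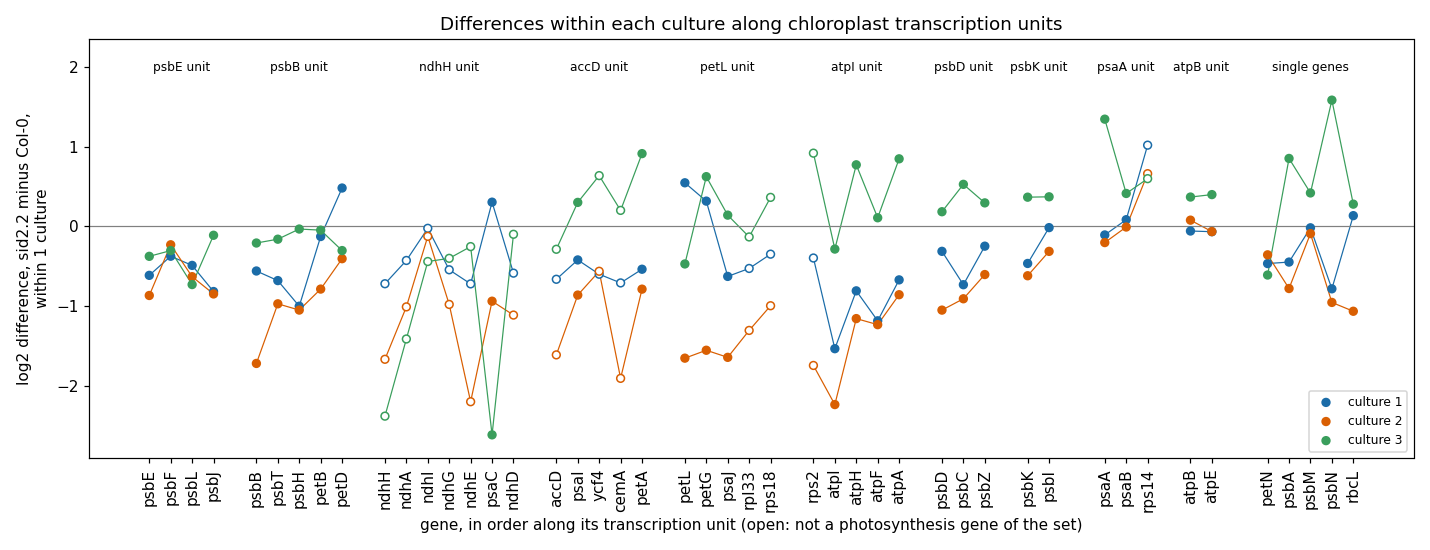
Log2 difference (sid2.2 minus Col-0) within each culture for genes in their order along transcription units; filled points are photosynthesis genes of the set, open points other genes of the unit, and petD, ndhH and rps14 lie under the low-signal limit. The psbE unit lies below 0 in every culture, while the psbD and psbK units lie below 0 in cultures 1 and 2 and above 0 in culture 3.

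Other plastid genes were also mostly lower in sid2.2, and whether the members differ from them was not tested. Of 8 tested ndh genes all were below 0 (median -0.40), of 17 ribosomal protein and polymerase genes 14 (median -0.29), and all 7 remaining plastid genes, among them matK, accD and clpP (median -0.23). Limma called 0 genes in each of these groups, where 0.022% of all probe sets were called. At an unadjusted p under 0.05 it gave 2, 2 and 1, all lower, beside the 2.76% of all probe sets lower and 4.65% higher given above. In culture 2 the medians of the 3 groups were -0.94, -0.99 and -0.80, close to that of the members. In culture 1 they were -0.56, -0.077 and -0.60, and in culture 3 they were -0.18, 0.067 and 0.51. Only 3 of 11 named mitochondrial genes passed the low-signal limit, and these differed by 0.12 to 0.47. Among these 3 limma called 0 (0.022% of all probe sets).

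A list of nuclear photosynthesis genes had differences nearer 0. It held 9 genes of antenna proteins, photosystem subunits and the ATP synthase gamma subunit, and RCA, PRK and SBPASE, which encode Rubisco activase and enzymes of the carbon fixation cycle, but no gene of the cytochrome b6f complex or the Rubisco small subunit. Of the 12 genes, which were all tested, 8 were below 0 and 4 above, with a median of -0.043 and a range of -0.37 to 0.20. Limma called 0 of them, where 0.022% of all probe sets were called. At an unadjusted p under 0.05 it also gave 0, where 2.76% of all probe sets were lower and 4.65% higher. Within cultures 1, 2 and 3 the nuclear genes had medians of -0.14, -0.40 and 0.55, the first turned to 0.012 by quantile normalization. PRK and SBPASE had the lowest values in culture 2 (-1.42 and -1.36). Their levels were lowest on Col-0 replicate 3 (median -0.30), which was the lowest array for 7 of the 12, and second lowest on sid2.2 replicate 2 (-0.18). PSAE-1 and PSAN of photosystem I differed by 0.082 and -0.045, PSBW and PSBY of photosystem II by -0.11 and 0.049, and ATPC1, for the gamma subunit of the ATP synthase, by -0.10. RCA, for Rubisco activase, differed by 0.20 (adjusted p = 0.885), beside -0.22 for rbcL. Most of these 12 nuclear genes had mean signals above 10000. Over all 201 tested probe sets above that signal the median difference was 0.060. It was 0.10 for the 5 members above that signal, against -0.39 for the other 27 tested members. The difference between plastid and nuclear genes was not tested, nor was the part of signal strength in it.

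Nuclear factors listed for plastid RNA were represented by 15 named genes, of which 8 were tested. Limma called 0 of these, where 0.022% of all probe sets were called. At an unadjusted p under 0.05 it gave 0, where 2.76% of all probe sets were lower and 4.65% higher. The median difference was -0.27 (5 below 0, 3 above). CRR41 and CRR42 entered the list by the letters of their names and are known for assembly of the NADH dehydrogenase-like complex. CRR41 differed by -0.59 (SE 0.30; adjusted p = 0.742), and CRR21, a pentatricopeptide repeat protein that edits plastid RNA, differed by -0.48 (SE 0.31; adjusted p = 0.774). ATAB2, needed for translation of photosystem mRNAs, differed by -0.35 (SE 0.19, limma adjusted p = 0.745). Its arrays did not overlap between genotypes, nor did those of CRR42 (lower) and OTP81 (higher). Among all probe sets, 5.58% were lower and 6.4% higher without overlap. LPA66, which edits the transcript of psbF, differed by -0.26 (SE 0.23; adjusted p = 0.832), beside -0.30 for psbF. Within cultures 1, 2 and 3 LPA66 differed by 0.099, -0.48 and -0.38, and psbF by -0.37, -0.23 and -0.30. A link between the 2 genes was not tested.

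**Figure D4:**
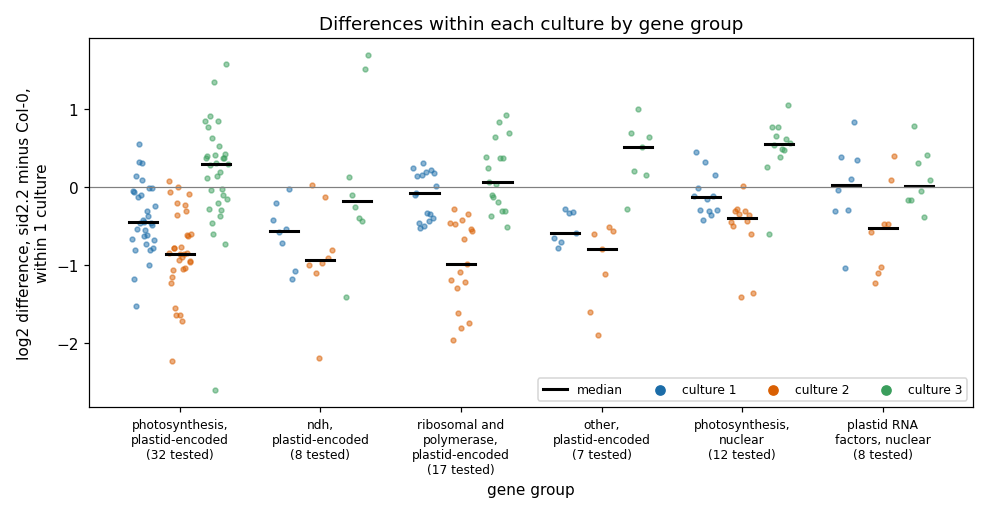
Log2 difference (sid2.2 minus Col-0) within each culture for the 32 tested plastid photosynthesis genes and for 5 other gene groups; each point is a gene and black bars are medians. In culture 2 all groups have medians below 0, and in culture 3 the members (0.29) and the nuclear photosynthesis genes (0.55) have medians above 0.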

How the data were processed

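Rosette RNA (200 ng per pool) was amplified and biotin-labelled with a commercial kit, per the labels' protocols. The deposited values are linear signal intensities per probe set, computed by the authors using MAS5, as the submitters' processing notes name it. The MAS5 version is not given in the sources used here. With the highest and lowest 2% of values left out, every array had a mean of about 500.05, so each array was scaled to a common target and a change in total signal is not visible. Arrays have no counting depth, and 3 arrays per genotype limit the precision.

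Of 22810 probe sets (64 controls), 13513 had 1 gene name in the platform annotation, 503 several and 8794 none. Symbols and plastid membership came through gene identifiers from RefSeq (assembly TAIR10.1), and mitochondrial genes through their symbol. FD and FDH matched the letters of the nuclear list but are no ferredoxins and were left out. Intensities were log2 transformed. Controls and the weakest 40% of probe sets by mean were left out. The genotype difference was fitted in limma 3.58.1 (R 4.3.3) by lmFit and eBayes, using a variance trend, with two-sided p-values adjusted by Benjamini-Hochberg over 13647 probe sets and calls at an adjusted p under 0.05. The fit was tested on simulated data. Labels give separate pools per culture, so p-values measure the spread between pools.

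Since the labels mark a culture as a batch shared by both genotypes, culture numbers pair the arrays, and a fit with culture as a block was tried. Across probe sets, the deviations from the genotype mean of 2 arrays of one culture had correlations of -0.035, -0.53 and -0.55 (cultures 1, 2 and 3).

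Members, gene lists and transcription units (from textbook knowledge) were chosen with earlier results of these data known. Values on all arrays were given for the strongest member of each complex, the one with the largest difference, psbA, rbcL, the weakest member and neighbours within units. Other scalings, filters, a pseudocount, no variance trend and left-out arrays were tried. psbE, psbF, psbL, psbJ, psbH, psaC's neighbours and petG were added after their values were seen.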

Additional observations from a re-analysis of the deposited data

How the results depend on the processing

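Over 17 alternatives the 32 tested members gave 544 values. Of these, 500 kept their direction and their side of the threshold, 5 passed it and 39, from 12 genes, turned sign. The filter changes, the fit without the variance trend and the culture block leave the log2 difference of a gene unchanged, so no sign could turn there. No member was called in the main fit, so keeping the side of the threshold means only that a gene stayed uncalled. Probe sets called in all numbered 3, against 0 without the low-signal filter, 1 with quantile normalization, 1 without the variance trend, 5 with a pseudocount of 16, 0 with culture as a replicate block and 235 with Col-0 replicate 3 plus the culture 2 array of sid2.2 left out. Leaving out 1 array or 1 culture gave 0 to 728 probe sets called (302 without Col-0 replicate 3, 728 without culture 3 and 0 in each other case), 0 to 3 members called and member medians of -0.615 to -0.054. With that pair of arrays left out 1 member was called. The culture block changed no call of a member. With median centring the median within culture 1 was -0.77. The cause of these changes was not tested.

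Signs turned for psbI with quantile normalization (-0.0016) and median centring (-0.066), and with quantile normalization for psbM (-0.0058) and atpE (-0.037). With that pair left out psaA was at -0.35 and atpE at -0.018. With 1 array or culture left out, psbA ran from -0.61 to 0.20, psbI from -0.16 to 0.18, psbM from -0.054 to 0.20, psbN from -0.87 to 0.40 and psbZ from -0.43 to 0.024. The ranges were -0.76 to 0.088 for atpA, -0.066 to 0.19 for atpE, -0.23 to 0.74 for psaA and -0.49 to 0.21 for rbcL. They were -0.66 to 0.19 for petA, -0.72 to 0.47 for petG and -1.06 to 0.038 for petL. Taking the mean of all probe sets of a gene changed nothing, since each member has 1.

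psaA, the tested member nearest the low-signal limit, spanned 3.81-fold over the arrays. Signals of different genes rest on different probes, so levels were not compared between genes.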
